A study of Homo sapiens with 6 samples.

Results

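The genes described here are 9 of the 60708 gene identifiers counted in U2OS cells, and they encode the enzymes that write ADP-ribose onto proteins at DNA breaks, telomeres and other sites, with their closest protein partners. They were chosen by name for their known roles, with earlier results of these data known. The members are PARP1, PARP2, PARP3, PARP4, the tankyrases TNKS and TNKS2, the cofactor HPF1, and the ubiquitin ligases RNF146 and CHFR. Each name matched 1 identifier in the count files, and all 9 had enough counts to be tested. U2OS is an established human osteosarcoma line, described by the submitters as wild type. Control cells were kept in the solvent DMSO. The other cells were kept in 25 µM PDD00017273, an inhibitor of poly(ADP-ribose) glycohydrolase (PARG), and are labelled PARGi below. Both groups were harvested after 4 days, with 3 biological replicates each. Total RNA was sequenced, so what follows concerns transcript levels and not the amount or activity of the proteins, and fewer expressing cells cannot be told apart from less RNA per cell.

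Poly(ADP-ribose), or PAR, is a chain of ADP-ribose units that is built from NAD onto target proteins, and PARG cuts it down again. PARP1 and PARP2 are switched on by DNA breaks, and HPF1 completes their active site so that they modify serine residues. PARP3 also responds to DNA breaks, and PARP4 is a component of the vault particle, a large cytoplasmic ribonucleoprotein. PARP3 and PARP4 are generally described as adding single ADP-ribose units in place of chains. The tankyrases bind their targets through ankyrin repeats and modify, among others, the axins that hold beta-catenin in check. RNF146 recognises the chain through a WWE domain and ubiquitylates the modified protein, and CHFR is a mitotic checkpoint ligase with a PAR-binding zinc finger.

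The 250 bases before the start sites of PARP1 and HPF1 are shown because the 2 proteins form 1 catalytic unit. The sequences are from RefSeq on GRCh38.p14, written 5′ to 3′ on the gene's strand. The PARP1 window is chr1:226408094-226408343 (minus strand) and the HPF1 window is chr4:169757945-169758194 (minus strand). Capitals mark matches, on either strand, to any of 5 short motifs: GGGCGG (a GC box), CCGGAAG (an ETS core), CACGTG (an E-box), ATTGG (the NF-Y motif on the other strand) and TATAAA (bound by TBP).
PARP1: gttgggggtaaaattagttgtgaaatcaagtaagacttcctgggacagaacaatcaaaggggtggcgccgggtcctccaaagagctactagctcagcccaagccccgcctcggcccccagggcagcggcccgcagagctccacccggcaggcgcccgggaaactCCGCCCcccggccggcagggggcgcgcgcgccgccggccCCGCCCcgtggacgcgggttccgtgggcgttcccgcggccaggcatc
HPF1: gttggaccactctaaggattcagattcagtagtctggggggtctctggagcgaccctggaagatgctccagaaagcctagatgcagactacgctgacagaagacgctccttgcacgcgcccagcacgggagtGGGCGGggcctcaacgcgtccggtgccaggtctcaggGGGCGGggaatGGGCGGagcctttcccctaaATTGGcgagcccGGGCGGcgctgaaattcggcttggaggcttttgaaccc

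HPF1 held 4 matches to GGGCGG and PARP1 held 2, where 42.6% of the 35116 windows of that length hold at least 1. HPF1 also held 1 match to ATTGG, a motif found in 32% of windows. The capitals in the PARP1 window are all GGGCGG read on the other strand. The PARP1 window was 70.4% G and C and the HPF1 window 62%, beside a median of 58% over all windows. CpG pairs numbered 26 in PARP1 and 17 in HPF1, beside a median of 11. These are descriptions of letters and no evidence of a bound factor.

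The libraries held between 60286931 and 80605145 counts and composition factors (TMM) near 1, from 0.99535 to 1.0068. The mesenchymal and osteoblast genes COL1A1 (4130 to 4660 CPM, counts scaled to library size), VIM (2350 to 2540 CPM) and RUNX2 (68.2 to 84.5 CPM) were present in every library. COL1A2 ran from 6.65 to 14.3 CPM, and the osteoblast markers ALPL and SPP1 were low, at 4.44 to 5.9 CPM and 1.38 to 2.13 CPM. The epithelial, blood and endothelial markers EPCAM, CDH1, PTPRC and PECAM1 stayed at or below 3.78 CPM, and ALB had at most 3 counts. Over all 20409 tested genes, 24.3% differed between the groups at an adjusted p under 0.05 (edgeR's quasi-likelihood test with Benjamini-Hochberg adjustment), which is what "called" means below. Of those tested, 13.2% were called higher and 11% lower in PARGi.

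Levels of different genes were compared per length, as CPM per kilobase of exon. PARP1 stood far above the others, at 58.9 ± 1.28 CPM per kb in DMSO (SD, n = 3). PARP2 followed at 18.3 ± 0.133, and its libraries overlapped with those of TNKS2 at 17.5 ± 0.444 CPM per kb. HPF1 stood at 14.7 ± 0.345 CPM per kb and PARP4 at 10.9 ± 0.327. The ligase RNF146 was lower, at 6.61 ± 0.149 CPM per kb, and TNKS was at 4.27 ± 0.0568. PARP3 (3.76 ± 0.064 CPM per kb) and CHFR (1.16 ± 0.0199 CPM per kb) closed the order. Apart from PARP2 and TNKS2, no neighbours in that order had overlapping libraries over the 6.

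The order was the same when the longest annotated transcript replaced the union of exons, but the distances were not. PARP1 then reached 107 ± 2.32 CPM per kb and PARP2 37.8 ± 0.275, and the overlapping neighbours were TNKS2 (17.5 ± 0.444) and HPF1 (17.2 ± 0.403). GENCODE 29 gives CHFR 17.127 kb of exon spread over 134.1 kb of chromosome 12, and its exons overlap 125 bases of GOLGA3 and 239 bases of ZNF605 on the same strand. Its longest transcript there is 11133 bases. Before division by length, CHFR stood at 19.9 CPM in DMSO and PARP3 at 11 CPM. The place of CHFR below PARP3 thus rests on its annotated length. Both lengths come from the same annotation, so the longest transcript is no independent check of that place. The 9 genes lie on 9 different chromosomes.

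**Figure D1:**
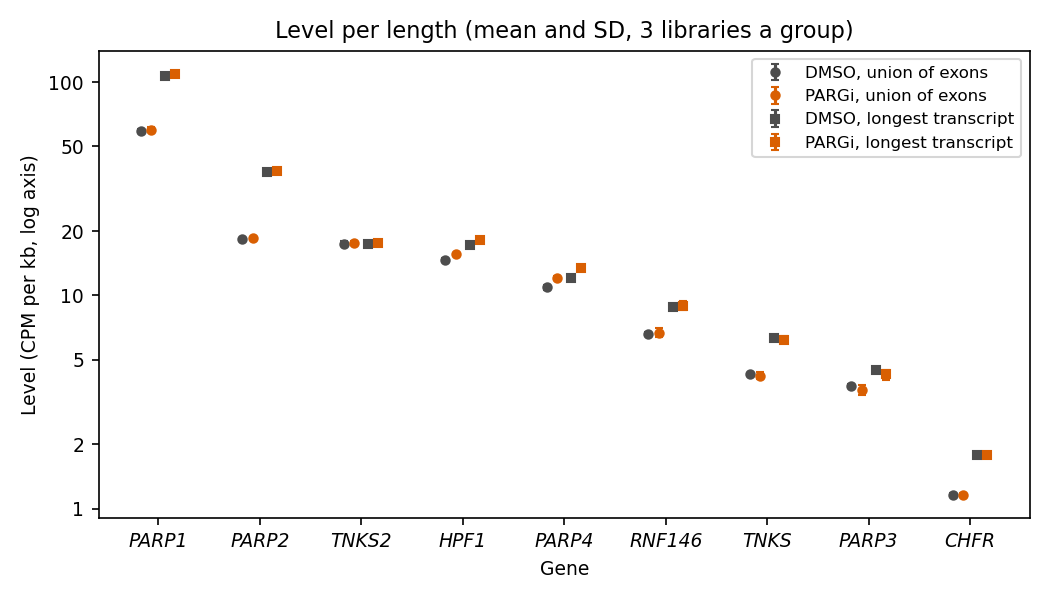
Level per length of the 9 genes, in CPM per kilobase on a log axis, with the mean and SD of 3 libraries for DMSO (grey) and PARGi (orange), by the union of exons (circles) and by the longest transcript (squares). PARP1 lies highest and CHFR lowest by both lengths, and the 2 groups nearly coincide for most genes.

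PARP4 rose in PARGi cells and was the only called gene of the 9. Its level was 68.3, 65.3 and 64.6 CPM in the DMSO libraries and 71.8, 74.5 and 75.2 CPM in the PARGi libraries. Every PARGi library thus lay above every DMSO library, with the DMSO replicate 1 and the PARGi replicate 1 nearest to each other. The log2 fold change, 0.16 (SE 0.030), passed the test at an edgeR adjusted p of 0.000278 and equals a rise of 11.8% with a 95% confidence interval from 7.13% to 16.7%. Of all tested genes, not matched for level, 36.4% had a larger change in either direction, and the median absolute log2 change was 0.109. It was called in all 17 alternative analyses, at log2 fold changes from 0.14 to 0.18 and adjusted p-values from 5.22e-06 to 0.0055.

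PARP4 (ENSG00000102699.6), which codes for protein, lies at 24420926 to 24512810 of chromosome 13 on the minus strand, with 34 separate stretches of exon in GENCODE 29. Its exons overlap no other annotated gene. Its 3 annotated pseudogene copies PARP4P1, PARP4P2 and PARP4P3 held at most 2 counts in any library, beside 4157 to 6046 for PARP4. The vault genes that PARP4 works with did not pass the test: MVP, the major vault protein, stood at 105 ± 4.25 CPM without the inhibitor and 102 ± 3.55 CPM with it (log2 fold change -0.049, edgeR adjusted p = 0.288). TEP1, which binds the vault RNA, was at 75.5 ± 0.653 and 73.6 ± 2.1 CPM (-0.036, edgeR adjusted p = 0.397). Neither was called in any of the 17 alternatives. With 1 library left out, MVP ranged from -0.0815 (without DMSO replicate 2, edgeR adjusted p = 0.0506) to -0.0191 (without PARGi replicate 3), and TEP1 from -0.0595 (without PARGi replicate 2) to -0.0216 (without PARGi replicate 1). Whether the changes of these genes differ from that of PARP4 was not tested. Of 9763 protein-coding genes with at least 10 CPM, those whose centred log2 levels over the 6 libraries came nearest to PARP4 were C1GALT1, SPOPL and DDAH1. Their root-mean-square differences from PARP4 were 0.011, 0.011 and 0.012 log2 units. Their log2 fold changes were 0.15, 0.16 and 0.16, near that of PARP4 because the genes were picked for likeness over the same 6 libraries.

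The share of the 9 genes that was called, 11.1%, stands beside 24.3% of all tested genes, and no member was called lower. Two-sided tests gave an unadjusted p under 0.05 for 2 members, PARP4 and HPF1. The same 2 had groups that did not overlap, 22.2% of the 9, beside 38% of all tested genes. The median log2 fold change was 0.014 over the members and -0.0070 over all tested genes, and the median absolute change was 0.022 over the members and 0.11 over all tested genes. All tested genes include some at far lower levels, such as TCF7 at 0.255 CPM in DMSO with an SE of 0.385. The genes were not matched for level. These counts and medians describe the 9 genes and do not set them apart from others.

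**Figure D2:**
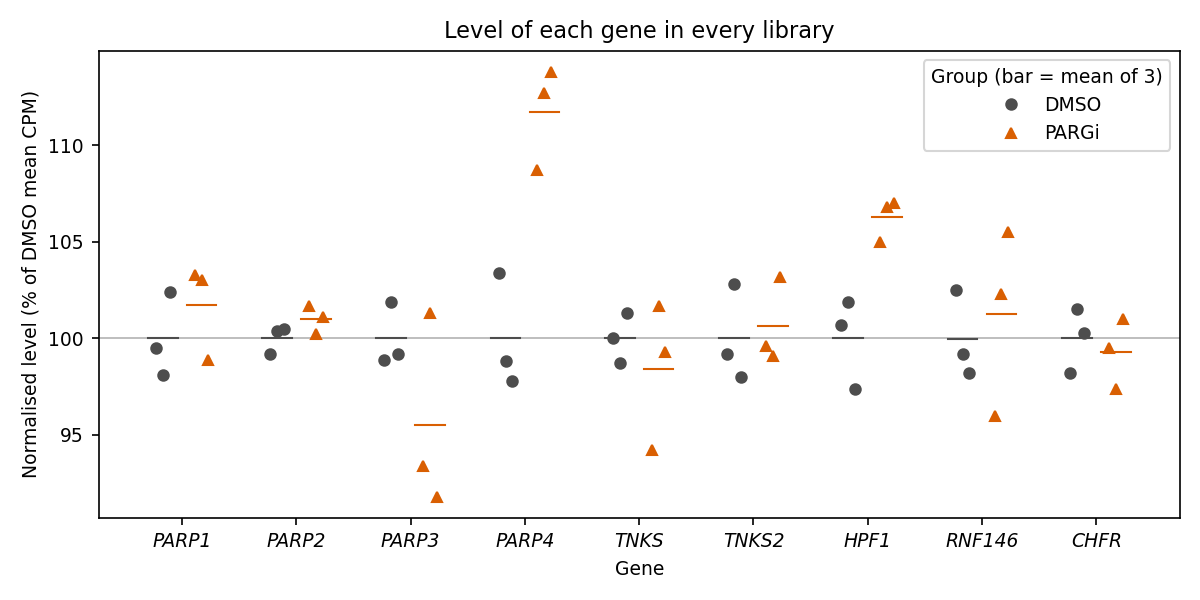
Level of each gene in each library as a percentage of its DMSO mean, for DMSO (grey circles) and PARGi (orange triangles), with bars at the group means. The PARGi libraries of PARP4 lie between 108.7% and 113.8% and those of HPF1 between 105% and 107%, above all their DMSO libraries, and for the other 7 genes the groups overlap.

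PARP1, which makes most of the PAR formed after DNA damage, was at 420, 415 and 433 CPM in DMSO and 437, 435 and 418 CPM in PARGi. The groups overlapped, with the lowest and the highest PARGi library on either side of the DMSO mean. The change was 1.74%, with an interval from -1.91% to 5.53% (log2 fold change 0.025, edgeR adjusted p = 0.534). With 1 library left out the log2 fold change ranged from 0.0121 (without DMSO replicate 2) to 0.0457 (without PARGi replicate 3). It was 0.0487 with the GC and length offset (edgeR unadjusted p = 0.0476, adjusted p = 0.128) and 0.000352 with upper-quartile scaling, and PARP1 was called in none of the 17 alternatives. PARP1 (ENSG00000143799.14) lies at 226360691 to 226408079 of chromosome 1 (minus strand), and its pseudogene copies PARP1P1 and PARP1P2 held at most 2 counts.

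PARP2, the smaller break-activated enzyme, was nearly level across the experiment, at 74.4, 75.3 and 75.3 CPM in DMSO and 76.2, 75.1 and 75.8 CPM in PARGi. The spread within a group was the smallest of the 9, with coefficients of variation of 0.724% and 0.736%, below the 1.28% to 1.48% expected from counting error alone in a library. The interval of its change ran from -2.79% to 4.89% (edgeR adjusted p = 0.758). PARP2 (ENSG00000129484.14) lies from 20343582 to 20357905 on the plus strand of chromosome 14. It shares 26 and 104 bases of exon with 2 antisense transcripts that held 132 and 15 counts over the 6 libraries together. RPPH1, the RNA of ribonuclease P, starts 175 bases from PARP2 on the other strand and was listed at 0 counts in all libraries.

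PARP3, the least abundant of the break-activated enzymes, was at 10.9, 11.2 and 10.9 CPM in DMSO and 10.3, 11.2 and 10.1 CPM in PARGi. Its PARGi replicate 2 lay among the DMSO libraries and the other PARGi libraries below them. The interval of the change was the widest of the 9, from -11.8% to 3.55% (log2 fold change -0.066, edgeR adjusted p = 0.443), on 618 to 826 counts per library. With 1 library left out the log2 fold change ranged from -0.111 (without PARGi replicate 2) to -0.0344 (without PARGi replicate 3), and PARP3 was called in none of the alternatives. PARP3 (ENSG00000041880.15) starts 404 bases from the divergently transcribed RRP9, a nucleolar RNA-processing gene, on chromosome 3. RRP9 went from 46 ± 4.56 CPM to 49 ± 1.98 CPM (edgeR adjusted p = 0.212), but it was called higher when DMSO replicate 3 was left out (log2 fold change 0.15) and with an offset for GC content and length (0.14). Without DMSO replicate 2 its log2 fold change was 0.0096.

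HPF1, the cofactor, was at 21.3, 21.5 and 20.6 CPM in DMSO and 22.2, 22.5 and 22.6 CPM in PARGi. The groups did not overlap, yet the difference of 6.38% did not pass the adjusted threshold (log2 fold change 0.089, SE 0.040, unadjusted p = 0.0369, edgeR adjusted p = 0.114), and its interval ran from 0.41% to 12.7%. HPF1 is the shortest of the 9 by exon length (1.436 kb), and its longest transcript the poorest in G and C (39.9%). With an offset for GC content and length in the model, its log2 fold change was 0.15 (edgeR adjusted p = 0.00487), and 0.15 again with the replicate number as a block beside that offset (adjusted p = 0.00999). In the other 15 alternatives it lay between 0.065 and 0.10 and was not called. HPF1 (ENSG00000056050.7) lies at 169729465 to 169757953 of chromosome 4 (minus strand), and its exons overlap no other annotated gene.

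The tankyrases did not pass the threshold. TNKS was at 60.6, 59.8 and 61.4 CPM in DMSO and 57.1, 61.6 and 60.2 CPM in PARGi, and TNKS2 was at 107, 111 and 106 CPM in DMSO and 108, 107 and 111 CPM in PARGi. In TNKS the lowest and the highest library both belonged to PARGi, and in TNKS2 the groups covered nearly the same range. The intervals of the change were -5.85% to 2.99% for TNKS (edgeR adjusted p = 0.666) and -3.23% to 4.76% for TNKS2 (adjusted p = 0.842). TNKS2 (ENSG00000107854.6) spans 91798312 to 91865276 on the plus strand of chromosome 10 and starts 21 bases from the divergent TNKS2-DT, which gave 0.949 ± 0.15 CPM without the inhibitor and 0.903 ± 0.173 CPM with it. TNKS (ENSG00000173273.16), on chromosome 8, shares 607 bases of exon with an antisense transcript that held 272 counts in all.

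The PAR-reading ubiquitin ligases did not pass the threshold either. RNF146, which pairs with the tankyrases, was at 23.8, 23 and 22.8 CPM in DMSO and 22.3, 23.7 and 24.5 CPM in PARGi, with the lowest and the highest library both from PARGi. Its interval ran from -4.47% to 7.89% (edgeR adjusted p = 0.767). CHFR was at 19.6, 20.3 and 20 CPM in DMSO and 19.9, 19.4 and 20.1 CPM in PARGi, with an interval from -6.46% to 5.4% (edgeR adjusted p = 0.896). Of the genes that share exon with CHFR, GOLGA3 was at 139 ± 3.61 and 146 ± 0.793 CPM (log2 fold change 0.067, edgeR adjusted p = 0.0658), and it was called higher without DMSO replicate 3 (0.0876) and with the GC and length offset, alone or with the replicate block (0.0903 and 0.0904). ZNF605 was called lower (23 ± 0.599 to 21.3 ± 0.179 CPM, log2 fold change -0.11, edgeR adjusted p = 0.0472), a call that 7 of 17 alternatives kept. It was lost without DMSO replicate 2 or 3 or any of the PARGi replicates, at log2 fold changes from -0.12 to -0.092. For the 8 uncalled members together, the 95% intervals left room for changes between -11.8% and 12.7%.

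**Figure D3:**
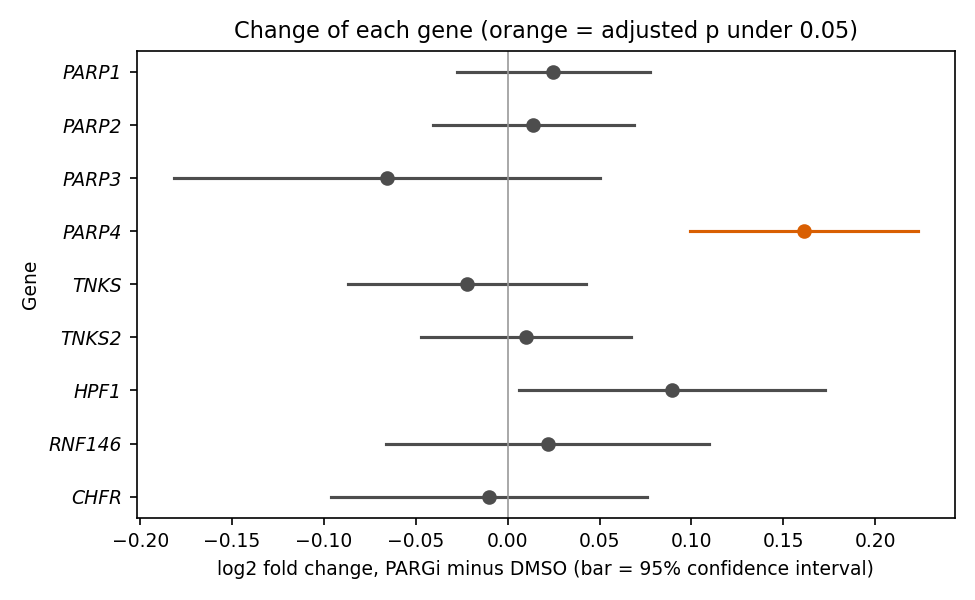
Log2 fold change of each gene, PARGi minus DMSO, with its 95% confidence interval from edgeR, and orange for an adjusted p under 0.05. PARP4 is the only called gene, the interval of HPF1 ends just above 0 before adjustment, and the 7 other intervals include 0.

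The balance between partners was then compared within each library, as ratios of levels per kb of exon. HPF1 amounted to 0.25 ± 0.0112 of PARP1 in the DMSO libraries and to 0.261 ± 0.00838 in those of PARGi (SD, n = 3). The libraries ran 0.253, 0.259 and 0.237 in DMSO and 0.254, 0.259 and 0.27 in PARGi, so the groups overlapped (exact permutation p = 0.3, two-sided, in a design whose p cannot go below 0.1). With the longest transcript as length, the ratio was 0.161 ± 0.00721 in DMSO and 0.168 ± 0.0054 in PARGi. PARP2 stood at 0.311 ± 0.00653 of PARP1 in DMSO and 0.308 ± 0.00813 in PARGi (exact permutation p = 0.7). TNKS2 was at 4.11 ± 0.158 times the level of TNKS in DMSO and 4.2 ± 0.177 times in PARGi (exact permutation p = 0.6). With the longest transcript as length, the ratio of TNKS2 to TNKS was 2.78 ± 0.107 in DMSO and 2.85 ± 0.12 in PARGi. RNF146 stood at 0.303 ± 0.0091 of the summed tankyrases in DMSO and 0.306 ± 0.00942 in PARGi (exact permutation p = 0.9). All 4 adjusted p-values were 0.9. Without DMSO replicate 3 the log2 difference in the ratio of HPF1 to PARP1 was 0.027, in place of 0.063 with all libraries.

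The genes around the members were described from lists drawn up by their known roles, with earlier results of these data known. Each list was given its counts beside the 24.3% of all genes, as a description and not as a test. The list of tankyrase substrates and binders had 8 of 16 tested genes called, 4 higher and 4 lower, at a median log2 fold change of 0.029. AXIN1, the scaffold of the complex that destroys beta-catenin and a target of tankyrase, rose from 45.4, 45.1 and 46.5 CPM to 52.3, 52.3 and 50.2 CPM (log2 fold change 0.17, edgeR adjusted p = 0.000194). MCL1, a survival protein of the BCL2 family, also rose, with a log2 fold change of 0.14. AMOT, an angiomotin that restrains YAP, fell from 54.5, 50.8 and 51 CPM to 42.4, 43.1 and 42.4 CPM (log2 fold change -0.29, edgeR adjusted p = 5.54e-07). NUMA1, a spindle-pole protein (-0.14), and CASC3, a core protein of the exon junction complex (-0.11), fell as well. BLZF1 (0.14) and AXIN2, described next, were called too.

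Of 8 tested targets of the beta-catenin pathway, 5 were called lower and none higher, at a median log2 fold change of -0.18. Of all tested genes, 11% were called lower. RNF43, a ligase that removes Wnt receptors, went from 4.5, 4.16 and 3.59 CPM to 1.88, 1.73 and 1.95 CPM (edgeR log2 fold change -1.13 ± 0.11 SE, adjusted p = 4.27e-08). NOTUM, a secreted enzyme that inactivates Wnt proteins, went from 3.02, 3.22 and 3.4 CPM to 1.88, 1.76 and 1.59 CPM (edgeR log2 fold change -0.89 ± 0.11 SE, adjusted p = 2.28e-06). For both genes the groups were well separated, on 113 to 286 counts per library. NKD1, a feedback inhibitor of Wnt signalling, fell at a higher level, from 71.9 ± 2.93 to 62.5 ± 1.15 CPM (log2 fold change -0.20, edgeR adjusted p = 3.01e-05).

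LEF1, the transcription factor that beta-catenin binds, fell from 40.6 ± 1.41 to 37 ± 1.57 CPM (log2 fold change -0.14), and AXIN2, a feedback scaffold, from 15.3 ± 1.3 to 13.7 ± 0.471 CPM (log2 fold change -0.16, edgeR adjusted p = 0.0459). The call of AXIN2 was the weakest: it was held in 9 of 17 alternatives, and without DMSO replicate 1 its log2 fold change was -0.086. It was lost as well without any PARGi replicate, at log2 fold changes of -0.18, -0.13 and -0.16 without replicates 1, 2 and 3, and LEF1 lost its call without PARGi replicate 3 (-0.11), where 3 genes of the list were called. ZNRF3, LGR5 and TCF7 were not called: ZNRF3, the relative of RNF43, was at 23.6 ± 1.11 and 24.3 ± 1.46 CPM, and LGR5 was at 4.05 ± 0.158 and 4.08 ± 0.276 CPM. TCF7 was near the floor, at 0.255 ± 0.145 and 0.214 ± 0.0151 CPM (log2 fold change -0.22, SE 0.385), and its value enters the list's median. SP5 and DKK1 had at most 3 counts in any library and were not tested. Another annotated gene on the same strand covers 57.64% of the exon length of RNF43 and held 53 counts beside 1216 for RNF43. One covers 25.18% of AXIN2 and held 6 counts. Reads from the shared stretches may be uncounted, and how many was not measured, so the levels of RNF43 and AXIN2 are uncertain.

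**Figure D4:**
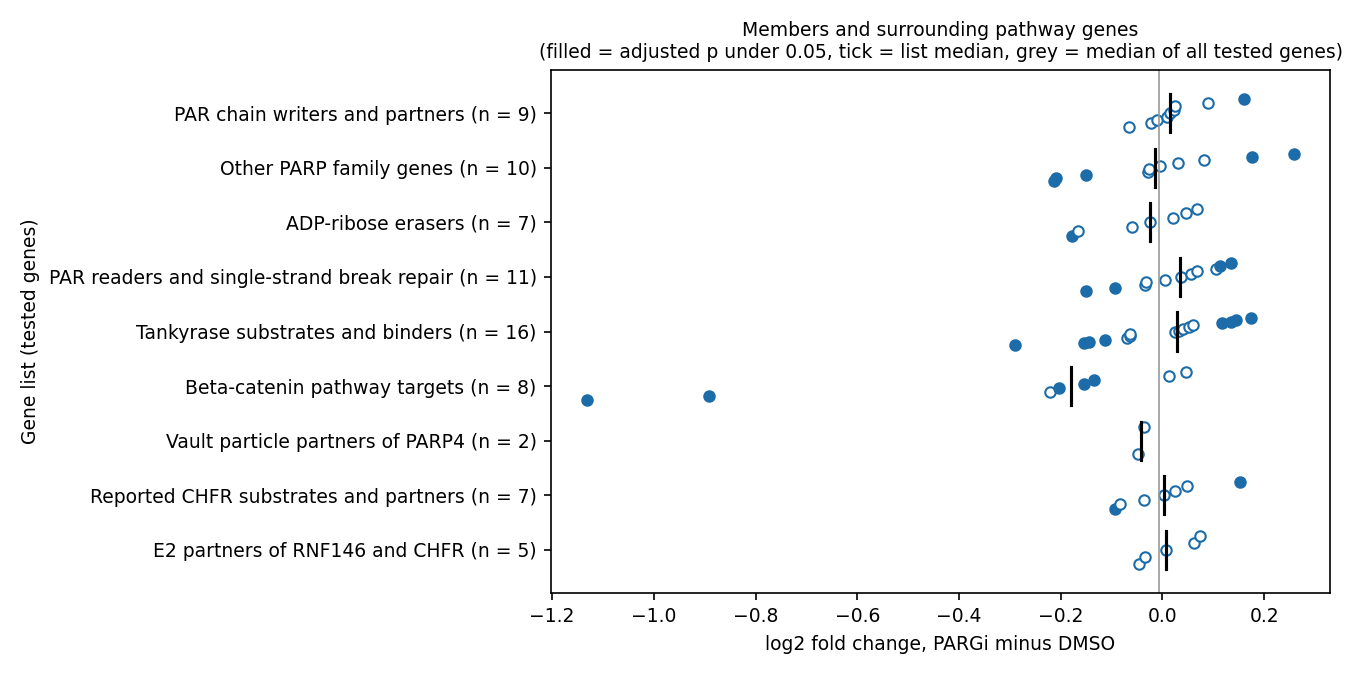
Log2 fold change, PARGi minus DMSO, of every tested gene in the 9 lists, filled where the adjusted p was under 0.05, with a black tick at each list's median and a grey line at the median of all tested genes. The 9 writers and partners lie between -0.066 and 0.16, and RNF43 and NOTUM in the beta-catenin list lie lowest of all genes drawn.

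Among 11 readers of PAR and single-strand break repair genes, 4 were called. FEN1, the flap endonuclease, rose from 199 ± 2.75 to 218 ± 1.9 CPM (log2 fold change 0.13), and TIMELESS, which binds PARP1, from 163 ± 3.44 to 177 ± 2.01 CPM (0.11). LIG3, the ligase that works with XRCC1, fell from 56.6 ± 1.43 to 53.1 ± 1.92 CPM (-0.094, edgeR adjusted p = 0.0364). The call of LIG3 was lost in 8 of 17 alternatives, among them those without DMSO replicate 2 (-0.073), PARGi replicate 2 (-0.077) and PARGi replicate 3 (-0.080). XRCC1, the scaffold recruited to PAR, was at 50.9 ± 0.76 and 49.8 ± 1.34 CPM and was not called. Exons of FEN1 overlap FADS2 on the same strand.

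Of 7 reported substrates and partners of CHFR, TOP2A, a topoisomerase, rose from 880 ± 26.3 to 978 ± 18.7 CPM (log2 fold change 0.15) and PLK1, a mitotic kinase, fell from 143 ± 4.9 to 134 ± 1.09 CPM (-0.094, edgeR adjusted p = 0.0142). PLK1 lost its call without PARGi replicate 1 (-0.089) and without PARGi replicate 2 (-0.092), so that 1 gene of the list was called in each case, while 3 were called without DMSO replicate 3 and 4 with the GC and length offset. AURKA, another mitotic kinase that CHFR is reported to target, was at 183 ± 1.46 and 184 ± 1.12 CPM. None of 5 E2 family genes listed as partners of RNF146 or CHFR was called by edgeR, with 2 of them, UBE2N and UBE2D2, at an unadjusted p under 0.05 (0.0141 and 0.0301). DESeq2 and limma-voom called none. UBE2N was at 76.7 ± 1.9 and 80.7 ± 1.03 CPM (edgeR adjusted p = 0.0561). It was called without DMSO replicate 2 (log2 fold change 0.092), with robust dispersions (0.074) and with the GC and length offset (0.076). With that offset, alone or with the replicate block, 2 of the 5 E2 genes were called, and with upper-quartile scaling 1 was called, which was not UBE2N.

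Elsewhere in the family, 5 of the 10 other PARP genes tested were called, beside 24.3% of all tested genes. Whether their share differs from the 1 of 9 writers and partners was not tested. TIPARP and PARP10 were higher, with log2 fold changes of 0.26 and 0.18, and PARP12, PARP16 and PARP11 were lower, with -0.21, -0.21 and -0.15. PARP10 was called in 8 of 17 alternatives and lost its call without DMSO replicate 1 (0.16) or 2 (0.13) and without PARGi replicate 1 (0.15) or 2 (0.17), and PARP16 lost its call without PARGi replicate 2 (-0.18), where 3 genes of that list were called. Of the 7 erasers, OARD1, which encodes the hydrolase TARG1, was called (-0.18, edgeR adjusted p = 0.000642), and 11.45% of its exon length is shared with UNC5CL on the same strand. ADPRS, the serine-specific hydrolase that undoes what PARP1 with HPF1 writes, was at 43.4 ± 0.372 and 45.4 ± 1.04 CPM and was called only with the GC and length offset, with or without the replicate block (log2 fold change 0.12 in both).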

How the data were processed

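Gene counts came from 6 libraries of total RNA prepared with a strand-preserving kit, per the labels' protocols, 3 for DMSO and 3 for PARGi, grouped by sample title. The authors deposited unnormalised integer counts for each gene. The submitters' processing notes name cutadapt 1.18, STAR 2.7.3a, SAMtools 1.9, DESeq2 3.12, deepTools and the build hg38, without their roles. The annotation release and the counting settings are not given in the sources used here, and a read shared by overlapping genes may be uncounted. Of 52 genes at least 90% covered by an abundant gene's exons on the other strand, 50 had counts, at a median of 0.658% of the abundant gene's density, so the values were taken as counts of the transcript's strand. Names matched 60507 of 60708 identifiers, and positions and lengths are those of GENCODE 29 (GRCh38).

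All genes were tested with edgeR 4.0.16 in R 4.3.3 (filterByExpr, TMM, glmQLFit, two-sided glmQLFTest on treatment), with Benjamini-Hochberg adjustment over 20409 genes and a threshold of 0.05. Levels are TMM-scaled CPM with the SD over 3 libraries, and exact permutation tests were computed with scipy 1.17.1. The script was tested on simulated data. The 17 alternatives were DESeq2 1.42.0, limma-voom (limma 3.58.1), 2 other scalings, 2 other filters, protein-coding genes alone, robust dispersions, a replicate block, an offset from a loess fit (span 0.3) on GC content and length, known for 98.1% of tested genes, offset and block together, and 6 fits that omit 1 library. The members and lists were chosen with earlier results of these data known. Besides the members, the text names up to 3 called genes per direction and list with the smallest p, or the gene with the smallest p where none was called, overlapping genes, pseudogene copies, and the 3 genes nearest to PARP4 in pattern. BLZF1, LEF1, AXIN2, TEP1, UBE2D2, AURKA, XRCC1, ADPRS, ZNRF3, LGR5, TCF7, SP5, DKK1, RPPH1, RRP9 and TNKS2-DT fall outside that rule and were chosen after their values were seen. Of the genes the rule names, 2 are not reported here. Figures were drawn with matplotlib 3.10.9.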

Additional observations from a re-analysis of the deposited data

How the results depend on the processing

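PARP4 kept its direction and its call in all 17 alternatives. The count of called members was 1 in 15 of them and 2 with the GC and length offset, alone or with the replicate block, where HPF1 joined PARP4 and the cause was not tested. The count of called genes over the whole table ran from 3607, without PARGi replicate 2, to 5859 with that offset, and that of the other lists together from 19 to 29 around 24. Small uncalled changes turned sign, with the cause not tested: PARP2, TNKS2 and RNF146 were at -0.0105, -0.0148 and -0.00276 with upper-quartile scaling, PARP2 and TNKS2 at -0.00127 and -0.00538 with protein-coding genes alone, and CHFR at 0.0281 with the offset and 0.028 with offset and block. With a library left out, TNKS ranged from -0.0461 to 0.00671, TNKS2 from -0.00859 to 0.0309, RNF146 from -0.00905 to 0.056 and CHFR from -0.0251 to 0.00444. The log2 difference in the ratio of PARP2 to PARP1 then ranged from -0.0321 to 0.00531, and that of RNF146 to the tankyrases from -0.00551 to 0.0403.

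The groups share replicate numbers, but no label ties a number to a culture or day, and deviations of same-numbered libraries correlated at -0.00585, 0.0157 and -0.00784, so they were not paired. With the replicate block, 4553 genes were called, 1 of them a member (PARP4, log2 fold change 0.161). Depth limits PARP3 most, where a library's counting error was 3.48% to 4.02%.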
